A study of Mus musculus with 12 samples.

Results

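The miR-379 to miR-410 cluster is a run of imprinted miRNA genes in the Dlk1-Dio3 domain. Its members were picked by name, with earlier results of these data known. Every TaqMan OpenArray assay was taken, of any species prefix, letter, arm or # mark, whose miRNA number was on a list of 35 numbers running through the cluster and including miR-134. For 33 of the 35 numbers the array had an assay, which gave 59 members among 619 miRNA assays. Of these 59, 43 had a threshold cycle (Ct) under 28 in all 12 samples, against 335 of the 619 assays. The remaining 16 members lacked a Ct in at least 1 sample. They are described by their Ct or by their level in single samples, and enter comparisons of groups only under other filters.

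The study asked how the hippocampal miRNA profile depends on the P2X7 receptor, an ATP-gated ion channel, in control mice and after status epilepticus. Its 4 groups of 3 samples were wild-type (wt) control, P2rx7-/- control, wt post-status epilepticus (post-SE) and P2rx7-/- post-SE. For each sample the ipsilateral hippocampi of 2 mice were pooled, so that the spread between samples is a spread between pools. From each pool 1 μg of total RNA was reverse transcribed, and each assay was read once. Labels gave the strain as C57BL/6 and the age as 8 weeks, while the methods give an age range that starts at 8 weeks. The methods describe the mice as male and the P2rx7-/- line, 6NTac;B6N-P2rx7tm1d(EUCOMM)Wtsi/Ieg, as lacking an exon of P2rx7, and the authors call the knockout constitutive. Post-SE mice received 0.3 μg of kainic acid (KA) in the amygdala and control mice the phosphate-buffered saline vehicle. All groups were given lorazepam at 6 mg/kg 40 min later, and tissue was taken 8 h after the injection. P2rx7 itself is not among the assays, so the genotype could not be checked in these values.

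The cluster's miRNAs are processed from long transcripts of the maternally inherited chromosome and are most abundant in brain, where they are found mainly in neurons. Its best-known member, miR-134, is induced by neuronal activity, limits the growth of dendritic spines through Limk1 and has been studied as a target for seizure control. Other members with known roles in neurons include miR-329 and miR-381, which take part with miR-134 in activity-dependent dendrite growth, and miR-369-3p, miR-485, miR-496 and miR-543, which act on excitatory synapses.

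Sequences came from the RefSeq miRNA annotation of the mouse build GRCm38.p6, in which 55 of the 59 assays matched a mature miRNA. These 55 stood for 45 distinct mature miRNAs from 34 hairpins, all on the + strand within chr12:109709060-109743795, a stretch of 34.7 kb. The arm was part of the assay name for 13 assays, and for the other 46 with older names it was assigned from background knowledge, except that miR-453 was given no arm. Assays with a human (hsa) or rat (rno) prefix were matched to the mouse miRNA of that name. In each sequence, written 5′ to 3′, capitals mark the seed, bases 2 to 8, which sets most of a miRNA's target choice. The 45 mature miRNAs had 43 distinct seeds, so that sharing a transcript did not mean sharing a seed, and 2 seeds were shared by a pair each. The first pair differs at 2 of 22 positions and the second at 1 of 22.
mmu-miR-379-3p: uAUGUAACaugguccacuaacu
mmu-miR-411-3p: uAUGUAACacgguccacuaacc
mmu-miR-376b-5p: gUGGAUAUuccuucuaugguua
mmu-miR-376c-5p: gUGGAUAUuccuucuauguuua

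The next sequences belong to members that were among the 3 of lowest p in at least 1 of the 7 comparisons, each with a seed of its own. Of the others among those 3, miR-376a, miR-376b, miR-381 and miR-409-5p are in the last list. miR-134-5p lies at chr12:109734145-109734166 and miR-541-5p at chr12:109742422-109742446.
mmu-miR-134-5p: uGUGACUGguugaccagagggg
mmu-miR-541-5p: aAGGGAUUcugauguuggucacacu
mmu-miR-409-3p: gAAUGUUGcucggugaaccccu
mmu-miR-369-3p: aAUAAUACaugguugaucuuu
mmu-miR-379-5p: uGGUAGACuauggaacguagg
mmu-miR-543-3p: aAACAUUCgcggugcacuucuu
mmu-miR-329-3p: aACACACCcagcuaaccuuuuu
mmu-miR-1197-3p: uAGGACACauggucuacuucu

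The last sequences are those of members whose Ct stood far from the rest in 1 to 3 samples, together with close relatives. miR-376a-3p and miR-376b-3p differ at 3 of 21 positions, and miR-300-3p and miR-381-3p differ at 3 of 22, with a different seed in both pairs. These, the pairs above and miR-495-3p with miR-543-3p, at 4 of 22, were the most alike among 444 pairs of equal length.
mmu-miR-376a-3p: aUCGUAGAggaaaauccacgu
mmu-miR-376b-3p: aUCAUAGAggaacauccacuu
mmu-miR-380-5p: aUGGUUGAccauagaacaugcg
mmu-miR-382-5p: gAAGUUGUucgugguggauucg
mmu-miR-382-3p: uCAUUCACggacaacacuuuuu
mmu-miR-300-3p: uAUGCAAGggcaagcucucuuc
mmu-miR-381-3p: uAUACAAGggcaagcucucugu
mmu-miR-409-5p: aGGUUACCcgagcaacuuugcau

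A lower Ct means more of a miRNA, by a factor of 2 per cycle if amplification is complete. The level used here is the mean Ct of a sample over the 335 assays minus the Ct of the assay (−ΔCt), a log2 value that is positive for miRNAs above the sample's average. Levels of different assays also depend on how well each assay amplifies, so differences between groups are taken within an assay. Between 470 and 538 miRNA assays gave a Ct in a sample, of which 51 to 57 were members. The mean Ct over the 335 assays lay between 18.2 and 19.3.

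Sample wt control replicate 1 stood apart from the other 11. It is kept in the fits, counts and tests, and values without it are given beside the main results that use wt control samples. It had the fewest assays with a Ct, 470, and over the 335 assays the rank correlation of its levels with the other samples was between 0.66 and 0.74, while each other sample reached at least 0.909 with some other. Over the 43 members these correlations were between 0.54 and 0.64. These are correlations across assays, which are not independent replicates. In this sample 8 of 43 members (18.6%) lay more than 2 cycles away from their own median elsewhere, beside 60 of 292 assays outside the cluster (20.5%). Every other sample had between 0 and 3 such members.

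Repeated wells gave a measure of the technical error that single wells cannot give. snoRNA135, a small nucleolar RNA that serves as a control, was read in 16 wells per sample. The SD of its Ct was between 0.20 and 0.58 cycles in 9 samples. It was 0.85 in P2rx7-/- post-SE replicate 1, 1.38 in wt post-SE replicate 1 and 3.63 in wt control replicate 1. In the last of these the wells read from 11.5 to 26.6 for the same RNA. Of the 16 wells, 14 gave a Ct in this sample and in P2rx7-/- control replicate 1, and 15 in P2rx7-/- post-SE replicate 1. The plant miRNA assay ath-miR159a, which should find no template, gave a Ct in 2 of 24 wells, at 23.9 in wt control replicate 1 and at 13.5 in P2rx7-/- post-SE replicate 1. The latter is below the median Ct of every member. Single members stood far from their other values in these 3 samples, and also in samples whose repeat wells lay close together.

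Among the members with a Ct in all samples, levels covered a wide range. The lowest median Ct values were those of miR-411 (14), miR-382 (14.2), miR-376c (14.7), the hsa assay for miR-409-3p (14.9) and the hsa assay for miR-487b (15). miR-410, read in 11 samples, belongs beside these with a median Ct of 14.6. At the other end were miR-1197 (25.6), miR-299-5p (25.2), miR-300# (24.6), miR-1193 (22.8) and miR-300 (21.8). The order did not follow the position in the cluster: miR-411 and miR-410 lie near its opposite ends, and miR-1197 and miR-299-5p lie close to miR-411.

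miR-411 had the lowest median Ct of all members. Its level was 5.0, 4.82 and 5.06 in wt control, 4.52, 4.38 and 5.19 in P2rx7-/- control, 4.62, 5.22 and 5.36 in wt post-SE, and 5.41, 4.98 and 4.34 in P2rx7-/- post-SE samples. The 4 groups overlapped. Single wells of other members were above it in 7 of the 12 samples, among them wt control replicate 1, where miR-666-3p was at 7.82 and the hsa assay for miR-485-5p at 7.63, and P2rx7-/- post-SE replicate 1, where miR-382 was at 6.74. miR-382 was above it in 5 samples.

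**Figure D1:**
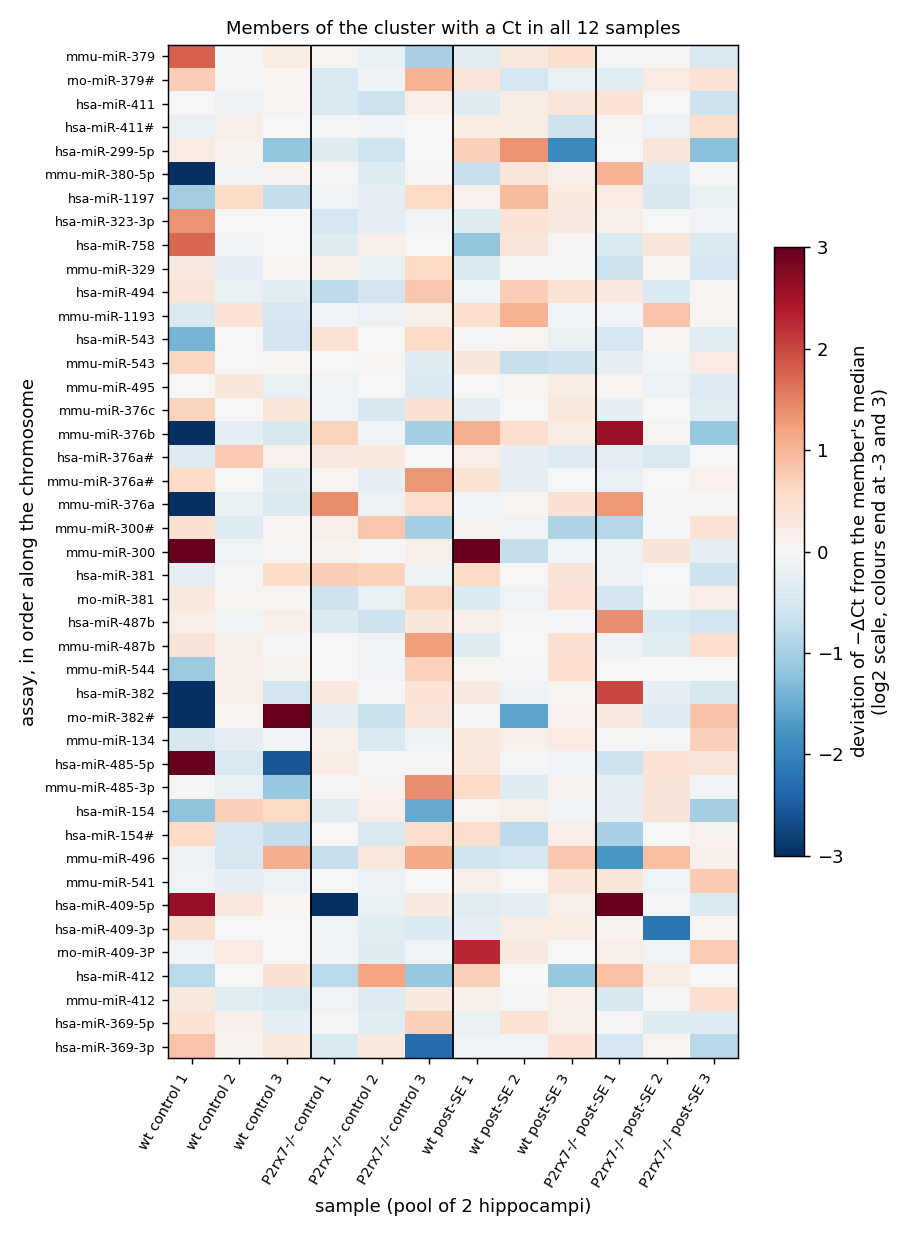
Deviation of −ΔCt from each member's own median (log2 scale, colours ending at −3 and 3) for the 43 members in the 12 samples, in the order of their genes along the cluster. miR-376a, miR-376b and miR-380-5p are darkest blue in wt control replicate 1, where their levels are −6.11, −6.77 and −6.75.

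The 16 members with a missing Ct were of different kinds. In 8 of them 1 sample alone lacked a Ct, and this was wt control replicate 1 for miR-376b# and the mmu assay for miR-666, P2rx7-/- control replicate 1 for miR-410 and miR-666-3p, P2rx7-/- control replicate 3 for miR-667 and miR-668, wt post-SE replicate 1 for miR-539, and wt control replicate 3 for the rno assay for miR-409-5p. Their median Ct lay between 14.6 and 21.7, and where they were read no Ct was above 23.1, against the limit of 28. The rno assays for miR-666 and miR-543 and the assay for miR-380-3p lacked a Ct in 2 samples each. Another 5 were near the limit: miR-376c# and the hsa assay for miR-377 were read in 4 samples, the mmu assay for miR-494 and miR-453 in 3, and the rno assay for miR-377 in 1, at median Ct between 25.5 and 26.8. None of these 5 was read in enough samples for a comparison of groups.

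Replicates of a group differed by about as much among members as among other assays. The median over the 43 members of the SD within groups was 0.55 on the log2 scale, and over the 292 assays outside the cluster it was 0.65. Without wt control replicate 1 these medians were 0.51 and 0.54. The range over members was wide, from 0.22 to 2.98, and the highest values were those of miR-376b (2.98), miR-376a (2.72), miR-380-5p (2.66), the hsa assay for miR-485-5p (2.43), miR-300 (2.16) and the hsa assay for miR-409-5p (2.03).

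In wt control replicate 1 the members that stood apart did so in both directions. miR-376a had a Ct of 25.2 there against a median of 15.3 in the other samples, miR-376b 25.8 against 15.5, and miR-380-5p 25.8 against 16.8. miR-382 was at 18.4 against 14.1 and miR-382# at 22.5 against 19.1. In the opposite direction, the hsa assay for miR-485-5p was at 11.4 against 18, miR-300 at 17.1 against 21.8 and the hsa assay for miR-409-5p at 17.8 against 20.5. The 3p arm of miR-376b and that of miR-376a come from neighbouring hairpins, but both assays for the other arm of miR-376a gave a Ct close to their others, 19.1 and 18.6 against overall medians of 18.7 and 18.9.

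Other samples had single members out of place. miR-300 was at 17.4 in wt post-SE replicate 1, a value it shared with wt control replicate 1 alone. In P2rx7-/- post-SE replicate 1 the hsa assay for miR-409-5p was at 14.6 against 20.5, miR-382 at 11.8 against 14.3 and miR-376b at 12.7 against 15.6. The hsa assay for miR-409-5p was also late in P2rx7-/- control replicate 1, at 24.0. miR-382# was at 15.4 against 19.7 in wt control replicate 3, the hsa assay for miR-409-3p at 17.4 against 14.8 in P2rx7-/- post-SE replicate 2, and miR-369-3p at 24.0 against 21.5 in P2rx7-/- control replicate 3. All of these are single wells, and whether a repeat would give the same Ct was not tested.

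Whether the members moved together was described by counting, in each sample, those above their own median over the 12 samples. The count of 43 was 25, 20 and 23 in wt control, 16, 11 and 27 in P2rx7-/- control, 25, 23 and 29 in wt post-SE, and 19, 21 and 19 in P2rx7-/- post-SE samples. The lowest share was 25.6% in P2rx7-/- control replicate 2, where 43.2% of the other 292 assays were above their own median, and the highest was 67.4% in wt post-SE replicate 3, where the other assays had 64.0%. The median deviation of the members stayed between −0.17 and 0.18 on the log2 scale. Among post-SE samples the count and the median deviation of each wt sample lay above those of each P2rx7-/- sample, while those of the other assays overlapped, and limma called 0% of assays in this comparison. Between the other groups compared, the members overlapped.

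**Figure D2:**
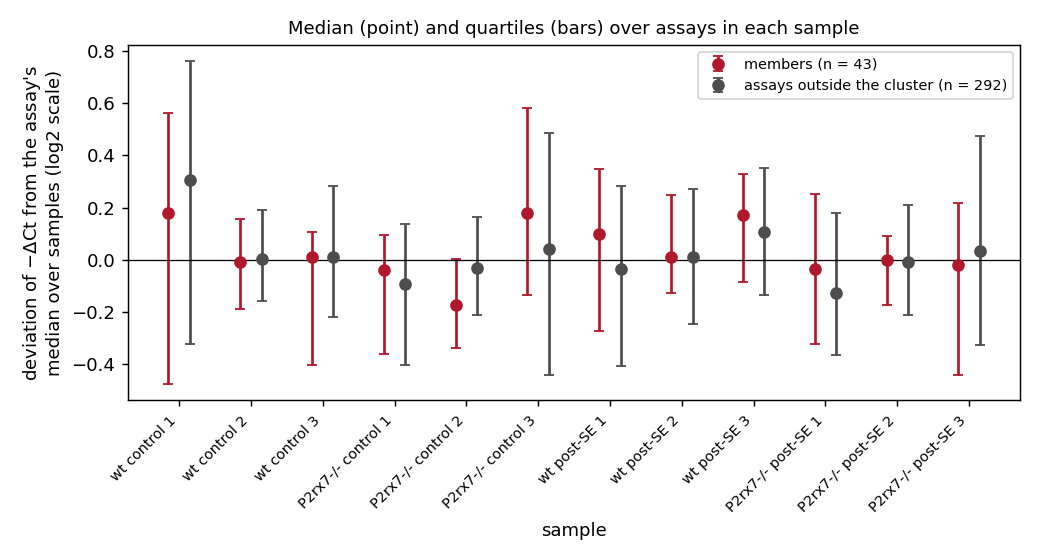
Deviation of −ΔCt from each assay's own median over the 12 samples (log2 scale), as median and quartiles over the 43 members and the 292 other assays in each sample. Medians of the members lie between −0.17 and 0.18, and the quartiles are widest for the other assays of wt control replicate 1, from −0.32 to 0.76.

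The effect of status epilepticus in wt mice was taken as wt post-SE minus wt control samples. The methods take a fold change (FC) above 1.5 as up-regulation and one below 0.6 as down-regulation. Here these thresholds were applied to the arithmetic mean of the 3 FCs (2 to the power −ΔΔCt) of a miRNA. This rule was met upward by 11 of 43 members (25.6%), beside 23.3% of all 335 assays, and downward by 2 members (4.65%), beside 12.5% of all assays. The upward share of members was near that of all assays. Up-regulated by this rule were miR-376b, miR-376a, miR-380-5p, miR-300, miR-382, the rno assay for miR-409-3p, miR-1197, miR-299-5p, miR-1193, the hsa assay for miR-543 and miR-485-3p, and down-regulated were the hsa assays for miR-485-5p and miR-409-5p.

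Several of these calls rest on wt control replicate 1. The average FC of miR-376b was 18.9 with it and 2.03 without it, that of miR-376a 11.7 and 1.40, that of miR-380-5p 8.27 and 1.02, and that of miR-382 2.97 and 1.21. For the hsa assay for miR-485-5p the average FC went from 0.452 to 2.97, from one side of the rule to the other. The 2.97 rests largely on wt control replicate 3, at a level of −1.57 against 0.55 in replicate 2. With that sample left out the rule was met upward by 10 members and downward by 1, beside 47 and 19 of the 292 other assays. Of the 11 members up-regulated with all samples, miR-376b, miR-300, the rno assay for miR-409-3p, miR-1197, miR-299-5p, miR-1193 and miR-485-3p were still so. miR-300 owed this to the single well of wt post-SE replicate 1: its 3 FCs with all samples were 10.1, 0.192 and 0.292.

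limma, fitted to the 335 assays with p-values adjusted over all of them, called 0 members and 0 assays (0%) for status epilepticus in wt. At an unadjusted p under 0.05 it had 13 of 335 assays and 0 of the 43 members, and the lowest adjusted p of a member was 0.664. Without wt control replicate 1 it had 2 members at such an unadjusted p, a count given without the share of all assays. The methods' two-group test had 11 of 335 assays (3.28%) at a p under 0.05, of which 2 were members, miR-134 and miR-541. These 2 were 4.65% of the members, and after adjustment over the 335 assays neither passed. The median difference of the members was −0.00 on the log2 scale, with 21 higher and 22 lower. That of the other 292 assays was −0.10, with 117 higher and 175 lower. Leaving out wt control replicate 1 gave medians of 0.07 and 0.02.

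**Figure D3:**
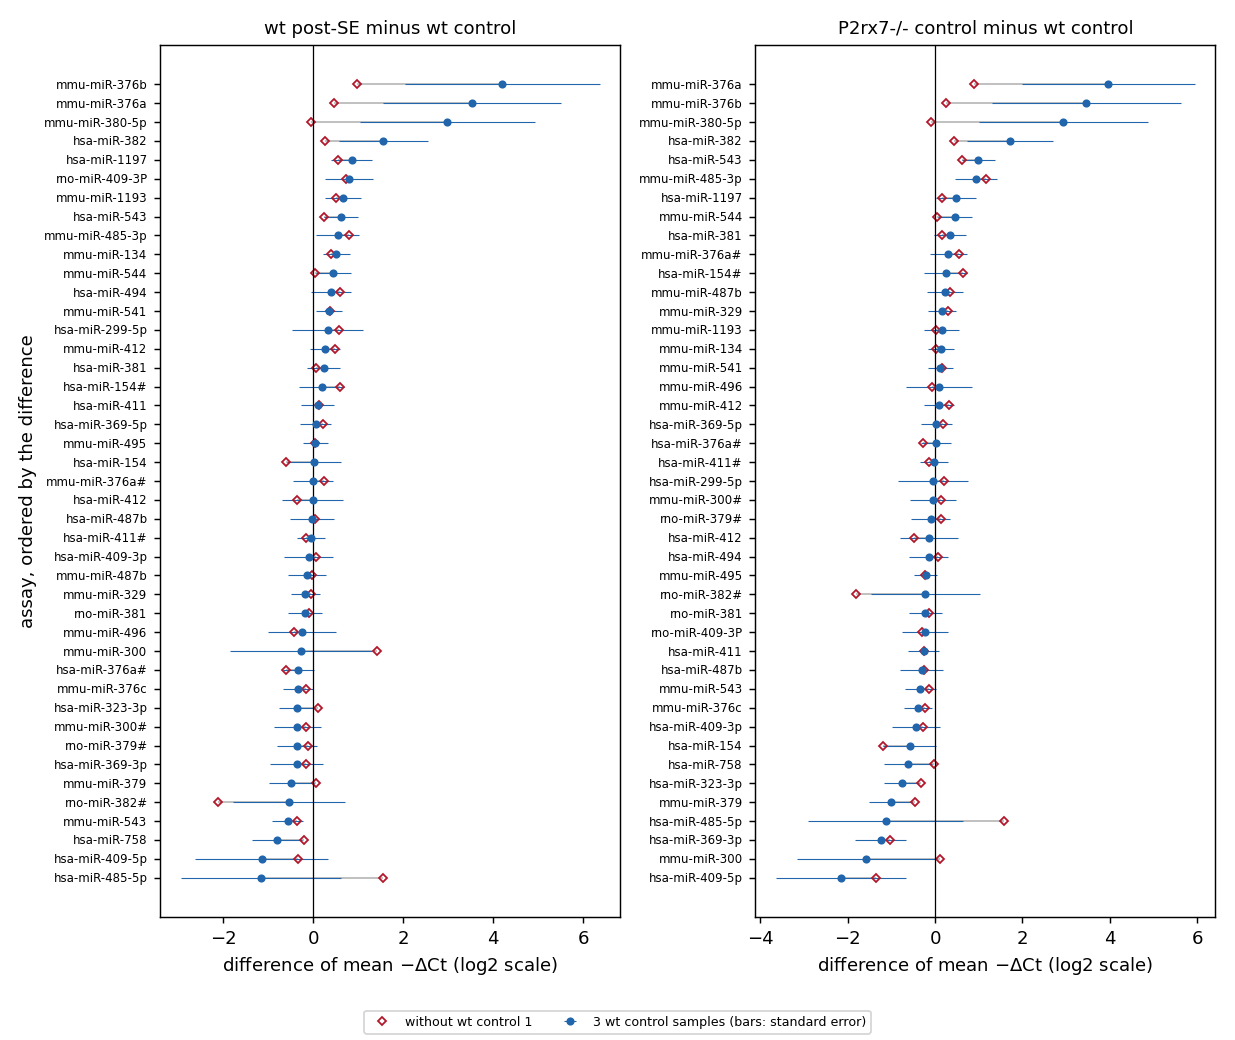
Log2 differences (points, with the standard error as bars) of the members for status epilepticus in wt and for genotype in control samples, each with and without wt control replicate 1. For status epilepticus in wt, miR-376b has 4.20 with all samples, and limma called 0 members in either comparison with or without that sample.

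Status epilepticus in P2rx7-/- mice was taken as P2rx7-/- post-SE minus P2rx7-/- control samples and does not use wt control samples. Upward the FC rule was met by 5 of 43 members (11.6%), beside 17.9% of all assays, and downward by 0 members, beside 7.16% of all assays. The 5 were the hsa assays for miR-409-5p, miR-412 and miR-487b, miR-376b and miR-382. The hsa assay for miR-409-5p had an average FC of 30.0 ± 48.8 (SD of 3 samples), since P2rx7-/- post-SE replicate 1 had 86.4 and the others 2.12 and 1.63. The rno assay for the same miRNA, with a median Ct of 21.7, did not follow, at a Ct of 21.5 in that sample and 22.5 in P2rx7-/- control replicate 1. The other 4 also had their highest FC in that sample: miR-376b, miR-382 and the hsa assay for miR-487b had 6.51, 3.47 and 3.10, with the other samples of each between 0.502 and 1.17, and the hsa assay for miR-412 had 2.19 against 1.40 and 1.18. Without that sample 1 member met the rule upward (2.33%), beside 16.7% of all assays.

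For this comparison limma called 0 members and 0 assays (0%), with 10 assays and 0 members at an unadjusted p under 0.05. The lowest adjusted p of a member was 0.998. The methods' two-group test had 8 of 335 assays (2.39%) at a p under 0.05, and 0 of them were members. The median difference was 0.01 over the members, with 22 higher and 21 lower, and 0.03 over the other assays. The comparisons in wt and in P2rx7-/- mice share no sample. With all samples the members split almost evenly between higher and lower in both, and a shift of the cluster as a set was not tested.

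miR-134 was higher post-SE on average in both genotypes, but the difference did not pass the adjusted test. Its level was 0.84, 1.05 and 1.26 in wt control, 1.49, 0.89 and 1.17 in P2rx7-/- control, 1.62, 1.48 and 1.58 in wt post-SE, and 1.30, 1.37 and 2.05 in P2rx7-/- post-SE samples. In wt all 3 post-SE samples lay above all 3 control samples, and in P2rx7-/- the highest control sample lay above 2 of the post-SE samples. Its average FCs, 1.43 for wt and 1.35 for P2rx7-/-, were both under the threshold of 1.5.

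On the log2 scale the difference of miR-134 was 0.51 with a standard error of 0.30 in wt and 0.39 with a standard error of 0.30 in P2rx7-/-. The latter was 0.15 without P2rx7-/- post-SE replicate 3, whose level of 2.05 was the highest. Averaged over genotypes it was 0.45 with a standard error of 0.21, for which limma gave an adjusted p of 0.829. This was the lowest p among members and rank 14 among 335 assays. A two-sided exact permutation test within genotypes, which has 400 arrangements and cannot go below 0.005, gave 0.015, and 0.502 after adjustment over 335 assays. The 3 against 3 exact permutation test in wt gave 0.1, the smallest p it can give. Without wt control replicate 1 the averaged difference was 0.40, with an exact permutation p of 0.025. Between genotypes miR-134 differed by 0.13 in control and 0.01 in post-SE samples, with a standard error of 0.30 for each.

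miR-541, whose gene lies nearer the miR-410 end, had the next lowest p for status epilepticus averaged over genotypes. Its level was −0.75, −0.89 and −0.83 in wt control, −0.66, −0.82 and −0.63 in P2rx7-/- control, −0.49, −0.64 and −0.29 in wt post-SE, and −0.29, −0.77 and 0.14 in P2rx7-/- post-SE samples. The wt groups did not overlap and the P2rx7-/- groups did, through replicate 2 of the post-SE samples. The averaged difference was 0.37 with a standard error of 0.20, with an exact permutation p of 0.025 and an adjusted value of 0.591, and it was 0.39 without wt control replicate 1, with a p of 0.03.

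Next in order was the rno assay for miR-409-3p, with an averaged difference of 0.64 and an exact permutation p of 0.03, or 0.591 after adjustment. Its levels were 3.35, 3.68 and 3.41 in wt control, 3.35, 3.06 and 3.32 in P2rx7-/- control, 5.70, 3.69 and 3.45 in wt post-SE, and 3.62, 3.33 and 4.19 in P2rx7-/- post-SE samples. Replicate 1 of wt post-SE stood far above every other sample, and without it the averaged difference was 0.28. Without wt control replicate 1 it was 0.60, with a p of 0.215. The hsa assay for the same miRNA had an averaged difference of −0.25. miR-134, miR-541 and this rno assay were the only members with an exact permutation p of at most 0.05 for status epilepticus averaged over genotypes. No share of all assays is given beside this count, so it is not read as a result about the members.

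Averaged over genotypes, limma called 0 members and 0 assays (0%). At an unadjusted p under 0.05 it had 11 assays and 0 members, and the lowest adjusted p over all 335 assays was 0.0521, for an assay outside the cluster. The median difference was 0.02 over members and −0.05 over the others, and 0.13 and 0.02 without wt control replicate 1.

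**Figure D4:**
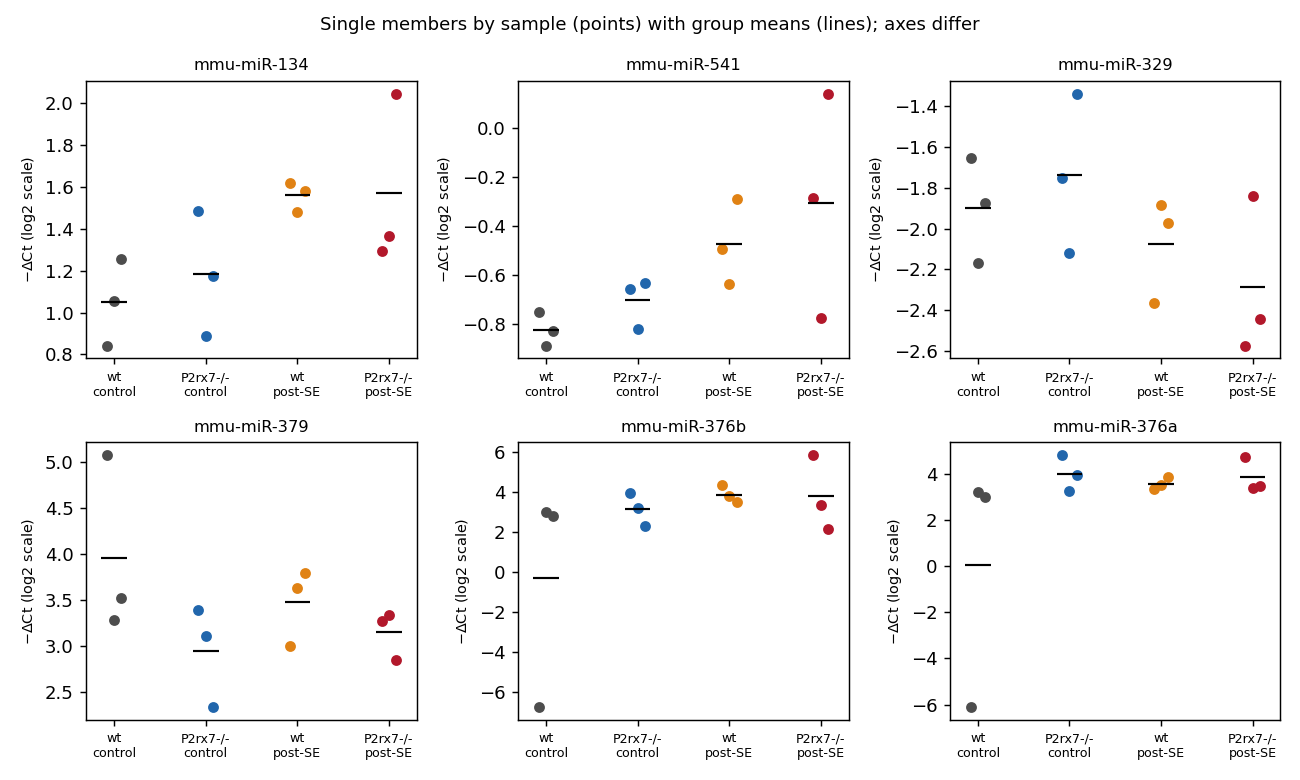
Level (−ΔCt, log2 scale) of 6 members in each sample, with group means as lines and a separate axis for each member. miR-134 lies between 0.84 and 1.26 in wt control and between 1.48 and 1.62 in wt post-SE samples, and the group means of miR-376a and miR-376b in wt control rest on replicate 1.

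Genotype in control mice was taken as P2rx7-/- control minus wt control samples, which it shares with the comparison of status epilepticus in wt. Upward the FC rule was met by 6 of 43 members (14%), beside 21.2% of all assays, and downward by 6 members (14%), beside 15.5% of all assays. Leaving out wt control replicate 1, these counts were 6 and 2, beside 59 and 19 of the 292 other assays. Upward, miR-376b, miR-380-5p and miR-382 no longer met the rule, with average FCs of 1.32, 0.948 and 1.35 in place of 12.3, 7.72 and 3.31. miR-376a had 17.3 with that sample and 2.06 without it, and the hsa assay for miR-485-5p had 0.457 and 3.00. The 3.00 rests largely on wt control replicate 3, at a level of −1.57 against 0.55 in replicate 2.

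limma called 0 members and 0 assays (0%) for genotype in control, with 20 assays at an unadjusted p under 0.05, of which 1 was a member, the hsa assay for miR-543. Without wt control replicate 1 it had 3 members at such a p, a count given without the share of all assays. The lowest adjusted p of a member was 0.615. The methods' two-group test had 13 of 335 assays (3.88%) and 0 members at a p under 0.05. The median difference was −0.05 over members, with 20 higher and 23 lower, and −0.02 over the others. These medians were 0.03 and −0.00 without wt control replicate 1.

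The hsa assay for miR-543 had levels of −0.57, 0.83 and 0.24 in wt control, 1.26, 0.81 and 1.40 in P2rx7-/- control, 0.86, 0.88 and 0.62 in wt post-SE, and 0.29, 0.89 and 0.51 in P2rx7-/- post-SE samples. The lowest value was that of wt control replicate 1, and the control groups overlapped. Its difference between genotypes in control was 0.99 with a standard error of 0.37, and 0.62 without wt control replicate 1. The mmu assay for the same miRNA had −0.33, with the opposite sign.

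Genotype after status epilepticus was taken as P2rx7-/- post-SE minus wt post-SE samples. Upward the FC rule was met by 4 of 43 members (9.30%), beside 17% of all assays, and downward by 1 member (2.33%), beside 4.48% of all assays. The 4 were the hsa assay for miR-409-5p, miR-382, miR-382# and miR-376b, and for all of these but miR-382# P2rx7-/- post-SE replicate 1 had the highest FC, at 42.9, 3.86 and 3.92. The 1 below was miR-300, with an average FC of 0.381 against a reference group in which replicate 1 stood far above the others. For each of these 5 members the groups overlapped.

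For genotype post-SE limma called 0 members and 0 assays (0%), with 4 assays and 0 members at an unadjusted p under 0.05. The lowest adjusted p of a member was 0.999. The methods' two-group test had 4 of 335 assays (1.19%) and 0 members at a p under 0.05. The median difference was −0.10 over members, with 15 higher and 28 lower, and 0.01 over the others. This was the most uneven split of the 7 comparisons. The sign of the median turned with the normalizer, but so did that of all 335 assays. The median over members was 0.048 for the median Ct and 0.14 for snoRNA135 as normalizer. That over all assays was 0.13 and 0.22, against −0.01 in the fit reported, so the members' median stayed the lower. The median deviation of the members was 0.10, 0.01 and 0.17 in wt post-SE and −0.04, −0.00 and −0.02 in P2rx7-/- post-SE samples.

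Averaged over treatments, limma called 0 members and 0 assays (0%) for genotype, with 16 assays and 0 members at an unadjusted p under 0.05, and the lowest adjusted p of a member was 0.930. The lowest p belonged to miR-369-3p, with levels of −1.70, −2.44 and −2.23 in wt control, −2.99, −2.25 and −4.85 in P2rx7-/- control, −2.66, −2.64 and −2.15 in wt post-SE, and −3.05, −2.46 and −3.39 in P2rx7-/- post-SE samples. The groups overlapped in both treatments, and P2rx7-/- control replicate 3 was far below every other sample. The averaged difference was −0.86, −0.49 without that sample and −0.76 without wt control replicate 1, the last with an exact permutation p of 0.14. With all samples the exact permutation p was 0.04, or 0.698 after adjustment, and this was the 1 member of 43 with a p of at most 0.05. The share of all assays at that p is not given, so the count says nothing about the cluster as a group.

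miR-379, the first gene of the cluster, was next, with levels of 5.07, 3.28 and 3.52 in wt control, 3.39, 3.11 and 2.34 in P2rx7-/- control, 3.00, 3.63 and 3.80 in wt post-SE, and 3.27, 3.33 and 2.85 in P2rx7-/- post-SE samples. Its averaged difference was −0.67 with an exact permutation p of 0.06, and −0.39 with a p of 0.13 without wt control replicate 1, whose value of 5.07 was the highest. The groups overlapped in both treatments. Over all members the median was −0.02, and −0.06 without that sample, while the others had 0.00 and 0.02.

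The interaction asked whether status epilepticus had a different effect in P2rx7-/- than in wt mice. limma called 0 members and 0 assays (0%), with 8 assays and 1 member, the hsa assay for miR-543, at an unadjusted p under 0.05. The lowest adjusted p of a member was 0.851. The median over members was −0.12 and that over the others 0.06, and −0.05 and −0.00 without wt control replicate 1. For miR-134 the interaction was −0.12 with a standard error of 0.42, and −0.02 without that sample.

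The members with roles in neurons showed no common direction. miR-329 had levels of −1.65, −2.17 and −1.87 in wt control, −1.75, −2.12 and −1.34 in P2rx7-/- control, −2.36, −1.88 and −1.97 in wt post-SE, and −2.57, −1.84 and −2.44 in P2rx7-/- post-SE samples. Its difference post-SE was −0.17 in wt and −0.55 in P2rx7-/-, with a standard error of 0.33 for each, and the groups overlapped. So miR-329 was lower on average where miR-134 was higher, and neither passed the adjusted test. In wt the differences without wt control replicate 1 were −0.05 for miR-329, 0.07 and −0.10 for the hsa and rno assays for miR-381, 0.79 for miR-485-3p, −0.15 for miR-369-3p and −0.41 for miR-496. With all samples, for miR-381, the hsa assay had 0.24 in wt and −0.67 in P2rx7-/-, and the rno assay had −0.18 and −0.06. miR-485-3p had 0.55 and −0.48. The hsa assay for miR-485-5p had −1.16 and −0.02, and in wt 1.56 without wt control replicate 1. The 1.56 rests largely on wt control replicate 3, at a level of −1.57 against 0.55 in replicate 2. miR-369-3p had −0.36 and 0.40. The 0.40 rests on P2rx7-/- control replicate 3, at a level of −4.85, and the difference was negative without that sample. miR-496 had −0.25 and −0.48. With all samples of P2rx7-/-, miR-329, miR-381, miR-485 and miR-496 were thus lower on average and miR-134 was higher. Several of these signs rest on 1 sample. Without P2rx7-/- post-SE replicate 1 the difference was positive for miR-496, at −4.42 there, and for miR-485-5p, at 0.37. Without P2rx7-/- control replicate 3 it was positive for the rno assay for miR-381, at −0.0025 there. The −0.48 of miR-485-3p rests largely on the same control replicate, at 2.36. miR-329 and the hsa assay for miR-381 stayed lower under every alternative. In P2rx7-/-, miR-543 had −0.59 by the hsa and 0.07 by the mmu assay.

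Several miRNAs were read by more than 1 assay. Over the 12 samples, the Ct of the rno assay for miR-381 was −2.34 ± 0.70 (SD) relative to the hsa assay, and that of the mmu assay for miR-412 was −2.15 ± 1.02 relative to its hsa assay. For miR-487b the mmu assay was 0.91 ± 0.69 later than the hsa assay, for miR-376a# it was 0.35 ± 0.61 later, and for miR-543 1.40 ± 0.78 later. For miR-409-3p the rno assay differed from the hsa assay by 0.04 ± 0.93, an average near 0 with single samples from −2.08 to 1.01. For miR-409-5p, over 11 samples, the rno assay was 1.84 ± 2.11 later than the hsa assay, with single samples from −1.55 to 6.92. Pairs with an assay that lacked more samples were no closer: the rno assay for miR-543 was 6.90 ± 1.62 later than the hsa and 5.44 ± 1.202 later than the mmu assay over 10 samples, the mmu assay for miR-494 was 3.49 ± 2.42 later than the hsa assay over 3, and the rno assay for miR-666 differed from the mmu assay by −0.59 ± 2.19 over 9. A constant offset would cancel in a comparison of groups, but these SDs were as large as most differences reported above.

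The assay pairs gave different signs for some comparisons. For status epilepticus in wt, miR-543 had 0.62 by the hsa and −0.56 by the mmu assay, and miR-409-3p had −0.10 by the hsa and 0.80 by the rno assay. The −0.10 rests on wt control replicate 1, at a level of 4.36, since replicates 2 and 3 lay below the post-SE mean of 3.96. Leaving out that sample, both assays for miR-409-3p were higher post-SE, the rno assay mainly through wt post-SE replicate 1, at 5.70. The signs for miR-543 stayed opposite. For status epilepticus in P2rx7-/-, miR-487b had 0.38 by the hsa and −0.38 by the mmu assay. The 0.38 rests on P2rx7-/- post-SE replicate 1, at a level of 5.29, since replicates 2 and 3 lay below the control mean of 3.66. Without replicate 1 both assays were lower post-SE on average. The pair for miR-376a# had −0.33 and −0.00 in wt and −0.44 and −0.40 in P2rx7-/-, the same sign in both. Which assay of a pair is closer to the amount of the miRNA was not tested.

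**Figure D5:**
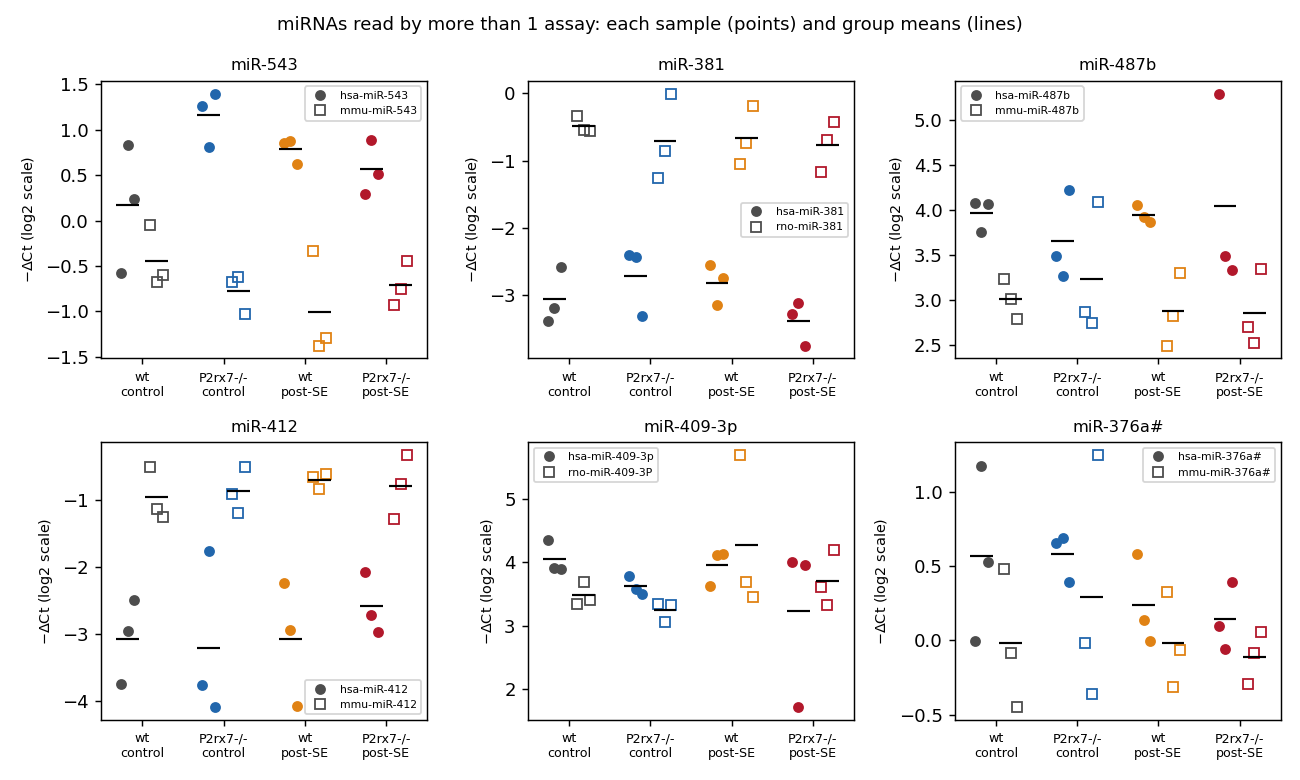
Levels (−ΔCt, log2 scale) of 6 miRNAs with 2 assays each that had a Ct in all samples, by sample. The mean Ct difference between the assays of a pair is between −2.34 for miR-381 and 1.40 for miR-543, and its SD over samples is between 0.61 and 1.02.

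Where both arms of a hairpin were read, the Ct values differed by up to 10.5 ± 0.96 cycles, for miR-376c# and miR-376c over 4 samples. miR-380-3p was 8.80 ± 0.99 later than miR-380-5p over 10 samples. The Ct of miR-411 was −6.47 ± 0.56 (SD of 12 samples) relative to miR-411#, and that of miR-379# was 4.23 ± 0.85 relative to miR-379. The 5p arm of miR-409 by the rno assay was 6.57 ± 0.47 later than the 3p arm by the hsa assay, over 11 samples. The smallest mean differences were 0.03 ± 0.51 for miR-666-3p and the mmu assay for miR-666 over 10 samples, −0.29 ± 1.00 for miR-376b# and miR-376b over 11, 0.34 ± 2.06 for miR-485-3p and miR-485-5p, and −0.39 ± 0.99 for miR-369-5p and miR-369-3p. The mean for miR-485 rests on wt control replicate 1, at 6.63, and the median over samples was −0.13. That for miR-369 rests largely on P2rx7-/- control replicate 3, at −3.19, and its median was −0.16. For status epilepticus in wt the difference was 0.11 for miR-411 and −0.05 for miR-411#. By contrast the arms of miR-376a differed by −2.48 ± 2.80 against the hsa assay of the other arm, with wt control replicate 1 at 6.11.

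Other imprinted miRNAs of the Dlk1-Dio3 domain, outside the list of numbers, were counted the same way. They had 27 assays, 16 of them with a Ct in all samples, and the most abundant of these 16 was miR-127, with a median Ct of 12.8. miR-434-3p, read in 11 samples, had 12.4. For status epilepticus in wt, 2 of 16 (12.5%) met the FC rule upward and 5 (31.25%) downward, beside 23.3% and 12.5% of all assays. In P2rx7-/- 5 (31.25%) met it upward and 2 (12.5%) downward, beside 17.9% and 7.16%. For genotype in control, 2 (12.5%) met it upward and 4 (25%) downward, beside 21.2% and 15.5% of all assays. In post-SE samples 4 (25%) met it upward and 0 downward, beside 17% and 4.48%. The median differences of the 16 were −0.30, 0.08, −0.40 and 0.17 in the same order. Without wt control replicate 1, for the comparisons that use it, the medians were −0.13 and −0.08. For status epilepticus in wt the rule was then met upward by 0 and downward by 2 (12.5%), beside 17.0% and 5.97% of all assays. For genotype in control it was met by 2 (12.5%) and 5 (31.25%), beside 19.4% and 6.27%. limma called 0 of the 16 in any of the 7 comparisons.

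Markers of cell types were read to see whether the cell content of the samples moved with the results. In bulk tissue, fewer cells of a type and less RNA per cell cannot be told apart. Of 7 assays for neuronal miRNAs (miR-124, miR-128, miR-138, miR-132 and miR-212), 3 had a Ct in all samples, and the most abundant of these was miR-212, itself induced by neuronal activity. Their summed level on the log2 scale was 7.05, 6.93 and 6.82 in wt control, 6.72, 6.72 and 7.31 in P2rx7-/- control, 7.74, 7.33 and 7.45 in wt post-SE, and 7.28, 7.02 and 7.90 in P2rx7-/- post-SE samples. In wt the post-SE samples all lay above the control samples, as for miR-134, and in P2rx7-/- the groups overlapped. miR-212 had differences of 0.69 in wt and 0.57 in P2rx7-/-, miR-128a 0.05 and 0.09, and miR-138# −0.15 and 0.42. The part of the neuronal miRNAs in the values of miR-134 was not tested.

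Of 6 oligodendrocyte assays (miR-219 and miR-338), 4 had a Ct in all samples, and their summed log2 level was 3.20, 2.90 and 2.67 in wt control, 2.01, 2.55 and 1.86 in P2rx7-/- control, 2.28, 2.59 and 3.05 in wt post-SE, and 4.28, 2.25 and 2.31 in P2rx7-/- post-SE samples, with miR-338-5P the most abundant by its median Ct. In control the P2rx7-/- samples all lay below the wt samples, but the 4 assays went both ways, with differences of 0.56 and 0.70 for miR-219 and miR-219-2-3p and −1.36 and −1.21 for miR-338-3p and miR-338-5P. All 4 were lower without wt control replicate 1, with a median of −0.70. In the other comparisons of 2 groups the sums overlapped, and the highest was that of P2rx7-/- post-SE replicate 1. Of 4 assays for microglia and blood myeloid cells (miR-223, miR-155 and miR-146a), 3 had a Ct in all samples, with miR-223 the most abundant, and the sum was 4.97, 5.19 and 6.68 in wt control, 5.42, 6.36 and 6.44 in P2rx7-/- control, 4.82, 5.64 and 4.65 in wt post-SE, and 5.72, 5.22 and 6.67 in P2rx7-/- post-SE samples. For these sums the groups overlapped. The 3 assays, 2 for miR-223 and 1 for miR-155, were all higher in P2rx7-/- than in wt, with differences of 0.92, 0.61 and 1.16 post-SE and 0.17, 0.25 and 1.53 in control, where 2 of the 3 were higher without wt control replicate 1.

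Both erythrocyte assays (miR-451 and miR-486) had a Ct in all samples, with miR-486 the more abundant by its median Ct, and their sum was 4.62, 3.33 and 2.41 in wt control, 2.72, 3.01 and 4.15 in P2rx7-/- control, 2.12, 2.36 and 2.30 in wt post-SE, and 2.62, 2.39 and 3.23 in P2rx7-/- post-SE samples. In wt the post-SE samples were all below the control samples, and they were also all below the P2rx7-/- post-SE samples. Of 6 vessel assays (miR-126, miR-143 and miR-145), miR-145 alone had a Ct in all samples, and its level was 1.94, 4.58 and 5.13 in wt control, 5.48, 4.79 and 5.49 in P2rx7-/- control, 7.94, 4.89 and 4.93 in wt post-SE, and 5.97, 5.08 and 4.73 in P2rx7-/- post-SE samples. Its extremes were wt control replicate 1 and wt post-SE replicate 1. miR-9 and miR-9#, which astrocytes and neurons share, had a Ct in 4 and 11 samples, so that 0 of 2 could be compared. limma called 0 assays of these lists in any of the 7 comparisons, and their part in the members' values was not tested.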

How the data were processed

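The authors deposited Ct values, not normalized, and a table of FC ratios that was not used. The methods name no software for the Ct calls, and by the labels RNA degradation was not assessed. How well human and rat assays read the mouse miRNA was not tested. Deposited Ct values lie between 10.0 and 28.0, and empty cells were taken as not detected. Samples were grouped by their labels, and 0 columns of values were not assigned to a sample. Assays with a Ct in all 12 samples were kept (335), and the mean Ct over these was subtracted in each sample. The FC was computed against the mean ΔCt of the reference group, and the 3 FCs were averaged arithmetically. The filter and a global mean as normalizer follow the methods. Taking that mean over the 335 assays and averaging the FCs arithmetically are choices made here, on which counts past the FC thresholds depend.

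Linear models of −ΔCt with 1 coefficient per group and 7 comparisons were fitted by lmFit and eBayes of limma 3.58.1, run in R 4.3.3. The p-values were adjusted over the 335 assays by the Benjamini-Hochberg method, with a threshold of 0.05, and the fit was tested on simulated data. Exact permutation tests were two-sided. For 3 against 3 samples they cannot go below 0.1, and for averaged effects below 0.005. Other values came from pandas 2.3.3, numpy 2.4.6, statsmodels 0.14.6 and scipy 1.17.1 under Python 3.11.15, with plots by matplotlib 3.10.9. Alternatives were other normalizers, other filters, leaving out each sample, a replicate block, sample weights, the methods' two-group test and geometric mean FCs.

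The members and lists were chosen with earlier results of these data known. Named were miR-134, for each comparison the 3 members of lowest limma p, members over 2 cycles from their other samples, miRNAs with more than 1 assay, the 5 lowest and 5 highest median Ct, and the neuronal members miR-134, miR-329, miR-381, miR-485, miR-369-3p, miR-496 and miR-543. Members past the FC thresholds in all 3 samples of a group without overlap were also named, as were members with a missing Ct. Members that added nothing were left out. miR-411#, miR-369-5p and single members counted by the FC rule were named after their values were seen.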

Additional observations from a re-analysis of the deposited data

Results flagged for a closer look

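In 5 of 43 members (11.6%), beside 31 of all 335 assays (9.25%), the 3 post-SE samples of wt all differed from the wt control mean in one direction and the 3 post-SE samples of P2rx7-/- all differed from the P2rx7-/- control mean in the other. The difference between the effects was 0.69 for miR-323-3p and 3.88 for the hsa assay for miR-409-5p, which were lower post-SE in wt and higher in P2rx7-/-. It was −1.21 for the hsa assay for miR-543, −1.03 for miR-485-3p and −0.64 for miR-544, which were higher post-SE in wt and lower in P2rx7-/-. The limma interaction test gave an adjusted p of 0.851 for each, so that in none of the 5 was the difference between the genotypes past the threshold. At an unadjusted p under 0.05 limma had 1 of them, the hsa assay for miR-543, and the mmu assay for the same miRNA was not among the 5.

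Without wt control replicate 1 the differences were 0.24 for miR-323-3p, 3.07 for the hsa assay for miR-409-5p, −0.84 for the hsa assay for miR-543, −1.27 for miR-485-3p and −0.23 for miR-544, each with a limma adjusted p of 0.980. miR-323-3p and miR-544 then no longer showed the opposite directions, which left 3 of 43 members (6.98%), beside 22 of all 335 assays (6.57%). The value for miR-409-5p also rests on the wells of P2rx7-/- control replicate 1 (Ct 24.0) and P2rx7-/- post-SE replicate 1 (Ct 14.6), against an overall median of 20.4, and the rno assay for the same miRNA had 22.5 and 21.5 there, against 21.7.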

How the results depend on the processing

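limma called 0 members in each comparison under every alternative fitted with it, the replicate block and the sample weights included. For the fit reported, members at an unadjusted p under 0.05 numbered 0 or 1 per comparison. Without wt control replicate 2 they were 5 for status epilepticus in wt and 6 for genotype in control, the most under any alternative. Sample weights gave 4 for the former and the methods' two-group test 2. The 5, 6 and 4 are given without the share of all assays. The replicate numbers were taken as not pairing samples. Between groups, after group means were removed, correlations of samples with the same number lay between −0.23 and 0.28 in 18 pairs, with a median of 0.04, and those with other numbers between −0.23 and 0.26. The replicates numbered 3 of all groups but wt control had 0.28, 0.27 and 0.25 with each other.

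Medians over the members are given where they moved by more than 0.11, the SD between samples. With the median as normalizer, that for genotype post-SE was 0.048, while the median of all 335 assays moved from −0.01 to 0.13. With snoRNA135 as normalizer, the medians were 0.20 for status epilepticus in wt, 0.41 for genotype in control, 0.14 for genotype post-SE, 0.32 for genotype averaged over treatments and −0.34 for the interaction. This normalizer shifted the median of all 335 assays to 0.11, 0.44, 0.22, 0.34 and −0.17 in the same comparisons. With it, 17 members were up (39.5%, beside 44.8% of all assays) and 2 down (4.65%, beside 6.87%) by the FC rule for genotype in control, and 8 up (18.6%, beside 27.8%) for genotype post-SE. With Ct under 12 taken as missing, the median for the interaction was −0.28, and 1 member was down for status epilepticus in wt (37 of all assays).

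With assays kept that were detected in at least 2 of 3 samples of each group, 4 of 54 members were down for status epilepticus in wt (7.41%, beside 12.8% of all assays), 10 up for genotype in control (18.5%, beside 25.5%) and 2 down for genotype post-SE (3.70%, beside 7.74%). An alternative chosen after seeing the data left out wt control replicate 1 and reapplied the filter, which kept 45 members. It gave 1 down for status epilepticus in wt (2.22%, beside 5.76% of all assays), 2 down for genotype in control (4.44%, beside 6.28%) and 2 down for genotype post-SE (4.44%, beside 4.71%). With geometric mean FCs, 3 members were up for status epilepticus in P2rx7-/- (6.98%, beside 13.4%) and 2 for genotype post-SE (4.65%, beside 11.6%).

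Leaving out each sample in turn, the median for genotype in control lay between −0.17 without P2rx7-/- control replicate 3 and 0.052 without P2rx7-/- control replicate 1. That for the interaction lay between −0.23 without P2rx7-/- post-SE replicate 3 and −0.00740 without P2rx7-/- control replicate 3. Counts by the FC rule for status epilepticus in wt were 1 to 4 down (all assays 5.97% to 17.3%): 1 without wt control replicate 1, and 4 without wt control replicate 2 or wt post-SE replicate 1. In P2rx7-/- they were 1 to 9 up (16.1% to 22.7%), with 1 without P2rx7-/- post-SE replicate 1, 9 without replicate 2 and 8 without replicate 3, and 0 to 4 down (5.97% to 12.2%), with 4 without P2rx7-/- post-SE replicate 2 and 1 without P2rx7-/- control replicate 2 or 3. For genotype in control they were 6 to 10 up (19.4% to 24.8%), with 10 without wt control replicate 3 or P2rx7-/- control replicate 1 or 2, and 2 to 8 down (6.27% to 20.6%), with 2 without wt control replicate 1. For genotype post-SE they were 2 to 8 up (15.5% to 21.5%), with 2 without P2rx7-/- post-SE replicate 1 and 8 without replicate 2. Downward they were 0 to 3 (4.48% to 9.55%): 0 without wt post-SE replicate 1, 2 for wt post-SE replicate 2 or P2rx7-/- post-SE replicate 3, and 3 for wt post-SE replicate 3 or P2rx7-/- post-SE replicate 1.

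miR-134 was higher post-SE under every alternative, with an exact permutation p between 0.01 and 0.07 for the averaged effect. With snoRNA135 its differences by genotype were 0.59 in control, 0.25 post-SE and 0.42 averaged over treatments, the last with an exact permutation p of 0.04. Some alternatives changed the sign: genotype post-SE was −0.00368 with assays outside the cluster as normalizer and −0.012 with Ct under 12 taken as missing. Leaving out each sample, genotype in control lay between −0.021 and 0.28, genotype post-SE between −0.23 and 0.15, genotype averaged over treatments between −0.049 and 0.14 and the interaction between −0.36 and 0.029. For the hsa assay for miR-409-3p, genotype post-SE lay between −1.13 and 0.025, positive without P2rx7-/- post-SE replicate 2. The exact permutation p ranged from 0.005, the smallest it can give, to 0.16 for miR-541, from 0.015 to 0.24 for the rno assay for miR-409-3p, and from 0.015 to 0.285 for miR-369-3p.

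With 3 pools a group and 1 well per assay, the standard error of miR-134 between 2 groups was 0.30, and it was 2.16 for miR-376b in wt, or 0.91 without wt control replicate 1. Female mice and times other than 8 h were not measured.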
